A study of Mus musculus with 51 samples.

Results

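The 150 mouse genes described here had a higher array signal in in vitro fertilised (IVF) morulae than at any other point from the oocyte to the blastocyst, and their course in cloned embryos is the main subject. They were chosen from the 18194 genes that had a probe set with exactly 1 gene symbol. Each gene was read from the probe set with the largest standard deviation over all 51 arrays. A score was taken as the mean of the 3 IVF morulae minus the highest mean among metaphase II oocytes and IVF 1-cell, 2-cell, 4-cell and 8-cell embryos and blastocysts, and the 150 highest scores were kept. Cloned embryos entered that choice only through the standard deviation that picked the probe set.

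Single embryos or oocytes were hybridised to Affymetrix arrays, 1 per array. Cloned embryos were made by moving nuclei of B6CBF1 Sertoli cells, the somatic nurse cells of the testis, into B6D2F1 oocytes, and 5 were collected at each of 6 stages. IVF embryos had B6D2F1 parents on both sides, with 3 collected at each of the same stages, and 3 unfertilised B6D2F1 metaphase II oocytes were added. The stages fell at 16, 32, 48, 62, 72 and 84 h after activation of the cloned oocytes or addition of sperm, and all embryos were grown in KSOM medium under low oxygen. The donor strain differed from the IVF strain, so cloning and strain cannot be told apart. The labels call the arrays of a group biological replicates but do not say whether embryos of a group shared a session. In single embryos, fewer cells of a type and less RNA per cell cannot be told apart.

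The morula is the stage at which the cells of the mouse embryo flatten against each other, polarise and begin to part into an outer layer, the future trophectoderm, and inner cells. Transcription from the embryo's own genome is by then established, and genes used for a short time around compaction can be high here and low again once the blastocyst cavity has formed. In a cloned embryo the same programme has to be run by a nucleus that came from a differentiated cell, and many clones stop or lag during these divisions.

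The values are log2 signals that were centred separately for each probe set, so a value of 0 is a probe set's own reference point and levels of different genes cannot be set against each other. Scores ran from 5.87 for Nppb to 0.98 for H2-K1, with a median of 1.35, and 28 genes scored 2 or more. For 90 of the 150 genes, all 3 IVF morulae lay above all 18 other oocyte and IVF arrays. The group with the next highest mean was the IVF blastocyst for 64 genes, the IVF 8-cell embryo for 42, the IVF 4-cell embryo for 20, the oocyte for 13, the IVF 1-cell embryo for 6 and the IVF 2-cell embryo for 5. Just inside the limit were Serinc5 at 1.00, Igll1, Kcnab2 and Selenoi at 0.99 each and H2-K1 at 0.98. Just outside it were Csf1r, Snx10 and Tmem174 at 0.98 each and Gk5 and Cpn1 at 0.97 each. The score rests on the choosing arrays themselves and is a description with no test.

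The 15 highest scores belonged to genes of unlike roles. Nppb encodes brain natriuretic peptide, a secreted hormone, and Zmat3, Eda2r and Jun encode a p53-induced RNA-binding protein, a receptor of the tumour necrosis factor family that p53 also induces, and a subunit of the AP-1 transcription factor. Acaa1b is a peroxisomal thiolase of fatty acid oxidation, Prps2 makes the ribose donor for nucleotide synthesis, Atp8b4 belongs to the lipid flippases and Abcb1a is a drug efflux pump. Myef2 is a transcriptional repressor, Cfap43 a protein of the ciliary axoneme, Dnajc6 the clathrin uncoating partner auxilin, Ube2q2 a ubiquitin-conjugating enzyme, Fgf13 an intracellular growth factor homologue, Igdcc4 a cell surface protein of the immunoglobulin superfamily and Smim38 a small predicted membrane protein.

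The RefSeq promoter windows of 3 members, picked by hand, are shown as examples: Nppb and Eda2r peaked at the morula in cloned and IVF embryos, and Smim38 did so in IVF embryos only. Windows of 3 picked genes cannot tie a motif to a course. Each window runs from 250 bases before to 50 bases after the gene start that the table uses (GRCm38.p6), 5′ to 3′ on the gene's strand. Capitals mark GGAATG or its reverse complement, the core of the site bound by TEAD factors, and TATAAA, the TATA box.
Nppb: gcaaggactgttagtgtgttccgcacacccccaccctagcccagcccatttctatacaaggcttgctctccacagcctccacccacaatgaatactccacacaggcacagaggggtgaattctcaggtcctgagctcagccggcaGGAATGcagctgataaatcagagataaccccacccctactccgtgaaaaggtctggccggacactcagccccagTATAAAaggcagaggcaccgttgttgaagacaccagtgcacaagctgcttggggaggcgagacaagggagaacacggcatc
Eda2r: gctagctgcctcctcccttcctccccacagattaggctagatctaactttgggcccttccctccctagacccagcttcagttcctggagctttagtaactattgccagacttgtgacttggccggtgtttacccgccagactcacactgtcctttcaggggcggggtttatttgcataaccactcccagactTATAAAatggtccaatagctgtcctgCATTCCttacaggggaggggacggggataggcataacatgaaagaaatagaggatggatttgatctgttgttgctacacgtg
Smim38: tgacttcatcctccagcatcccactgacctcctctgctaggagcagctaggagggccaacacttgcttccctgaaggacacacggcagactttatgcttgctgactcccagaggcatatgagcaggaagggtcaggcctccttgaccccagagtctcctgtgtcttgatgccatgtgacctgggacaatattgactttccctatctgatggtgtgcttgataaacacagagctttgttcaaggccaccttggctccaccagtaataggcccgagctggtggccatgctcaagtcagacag
They lie at chr4:147985650-147985949 on the plus strand, chrX:97377160-97377459 on the minus strand and chr7:145208070-145208369 on the minus strand. In the Nppb window the TEAD core began 105 bases before the start (-105) and the TATA box at -31. In the Eda2r window the TATA box began at -58 and the reverse complement of the TEAD core at -32. The Smim38 window held none of the 8 motifs searched, which says only that those letters are not in this window.

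Of the 150 genes, 125 had a promoter window, as did 14369 of all genes, and both strands were searched. The GC box GGGCGG was in 85 member windows (68.0%) and in 57.5% of all windows. CCACCC, the core of the Klf site, was in 59 (47.2%, against 40.3%), and GCCNNNGGC, the AP-2 site, in 40 (32.0%, against 25.4%). The TEAD core was in 19 windows (15.2%, against 15.3%), TATAAA in 14 (11.2%, against 11.5%) and CCAAT in 52 (41.6%, against 42.0%). AAGGTCA, bound by Nr5a2, was in 5 (4.0%, against 4.61%) and the E-box CACGTG in 8 (6.4%, against 10.3%). These shares are descriptions of the letters, with no test.

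By gene family the members were spread thinly. Zinc finger proteins numbered 6 (4.0%, against 2.12% of all genes), solute carriers 4 (2.67%, against 1.76%), and potassium channels and Ras-related small GTPases 2 each (1.33% each, against 0.462% and 1.04%). There was no member among keratins, claudins, cathepsins, proteasome subunits or mitochondrial ribosomal proteins, families that each hold 0.11% to 0.418% of all genes, too few to read anything from a count of 0. No member was in the written lists of junction and cavitation genes, trophectoderm genes or pluripotency genes. These lists hold only 38, 25 and 23 of the 18194 genes, again too few to read anything from a count of 0. The members in a written list were Zmat3 (p53 targets), Ccn2 (Hippo pathway), which encodes a secreted matrix protein, and Abcb1a (genes of Sertoli cells).

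The labelled stage was checked on its markers. Nanog, a pluripotency factor, stood at 4.31 ± 0.40 in cloned and 4.20 ± 0.90 in IVF morulae, and Cdx2, the trophectoderm factor, at 6.35 ± 0.49 in cloned and 6.34 ± 0.75 in IVF morulae (SD, n = 5 cloned and 3 IVF throughout). Cloned 8-cell embryos had Nanog at -0.13 and Cdx2 at -0.12, and cloned blastocysts had them at 3.74 and 8.08. Sox2, which marks inner cells, was at -1.06 ± 0.92 in cloned and 4.08 ± 1.59 in IVF morulae. Eomes, a trophectoderm marker, was at -0.10 ± 0.13 in cloned and 2.00 ± 2.37 in IVF morulae. Gata3, Krt8 and Krt18, of the same layer, averaged 2.87, 3.81 and 3.21 in cloned and 2.28, 4.89 and 4.37 in IVF morulae. Of the Sertoli markers, Amh and Wt1 were at 0.00 and Cldn11 at 0.01 in cloned morulae, against 0.00, -0.02 and -0.01 in IVF morulae, while Sox9 was 2.03 ± 1.91 in cloned and 0.37 ± 0.65 in IVF morulae. The mean over the 19 measured of 22 written Sertoli genes was 0.50 to 0.97 in cloned morulae and 0.07 to 0.25 in IVF morulae, and its part in the results was not tested. One array went against its label: cloned 8-cell replicate 4 had Eif2s3y, a Y-linked gene, at -5.25, near the oocytes (-5.42 to -5.37), although the Sertoli donors were male. The counts over the 150 genes that use that array are given with and without it, and so is each call for a named gene that it decides. The highest correlation between any pair of arrays was 0.970, so none was a copy of another.

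**Figure D1:**
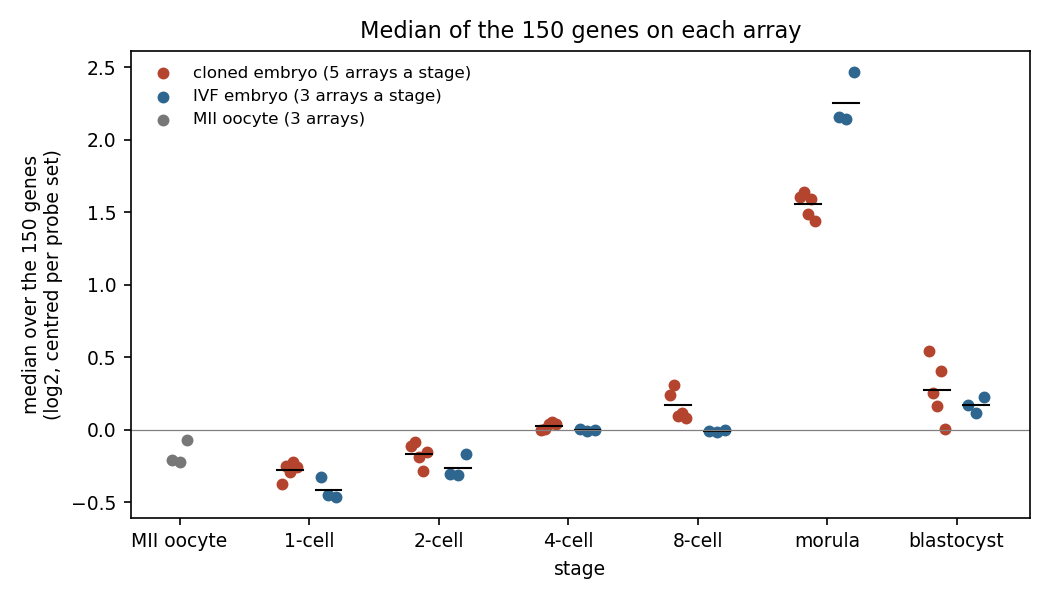
Median over the 150 genes on each array (vertical axis, log2 centred per probe set) by stage, with 1 point per embryo and black bars for group means. The 5 cloned morulae sit between 1.44 and 1.64 and the 3 IVF morulae, which chose the genes, between 2.14 and 2.47, while every other array is at 0.54 or below.

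In cloned embryos, which did not set the score, most of the genes also peaked at the morula. The median of the 150 genes was 0.08 to 0.31 in cloned 8-cell embryos, 1.44 to 1.64 in cloned morulae and 0.01 to 0.54 in cloned blastocysts, so the cloned morulae did not overlap either neighbouring clone stage. The clone stage with the highest mean was the morula for 96 of the 150 genes (64.0%), a stage that held the highest clone mean for 9.89% of all genes. Without cloned 8-cell replicate 4 it was the morula for 93 members (9.92% of all genes). With all arrays it was the blastocyst for 26 members (19.3% of all genes), the 8-cell embryo for 15 (17.0%), the 4-cell embryo for 7 (16.2%), the 2-cell embryo for 3 (10.7%) and the 1-cell embryo for 3 (27.0%). The cloned morula mean minus the highest other clone mean had a median of 0.38 over members and -0.60 over all genes. This clone gap followed the IVF score loosely, with a Spearman rho of 0.24 across the 150 genes, which are not independent replicates.

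**Figure D2:**
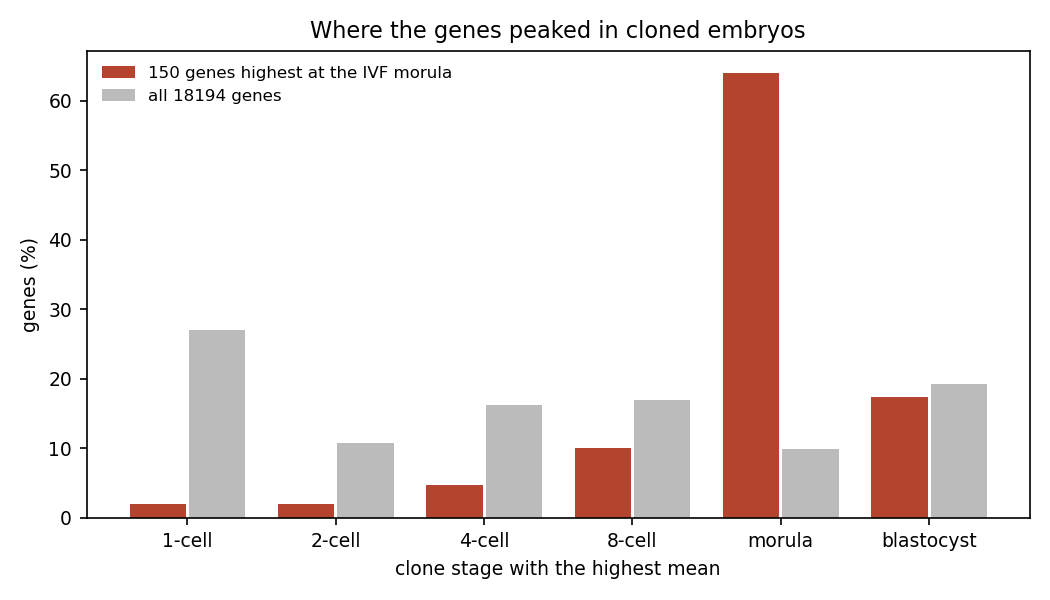
Share of genes (vertical axis, percent) by the clone stage with the highest mean, for the 150 genes (red) and for all 18194 genes (grey). The morula holds 64.0% of the 150 genes and 9.89% of all genes.

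**Figure D3:**
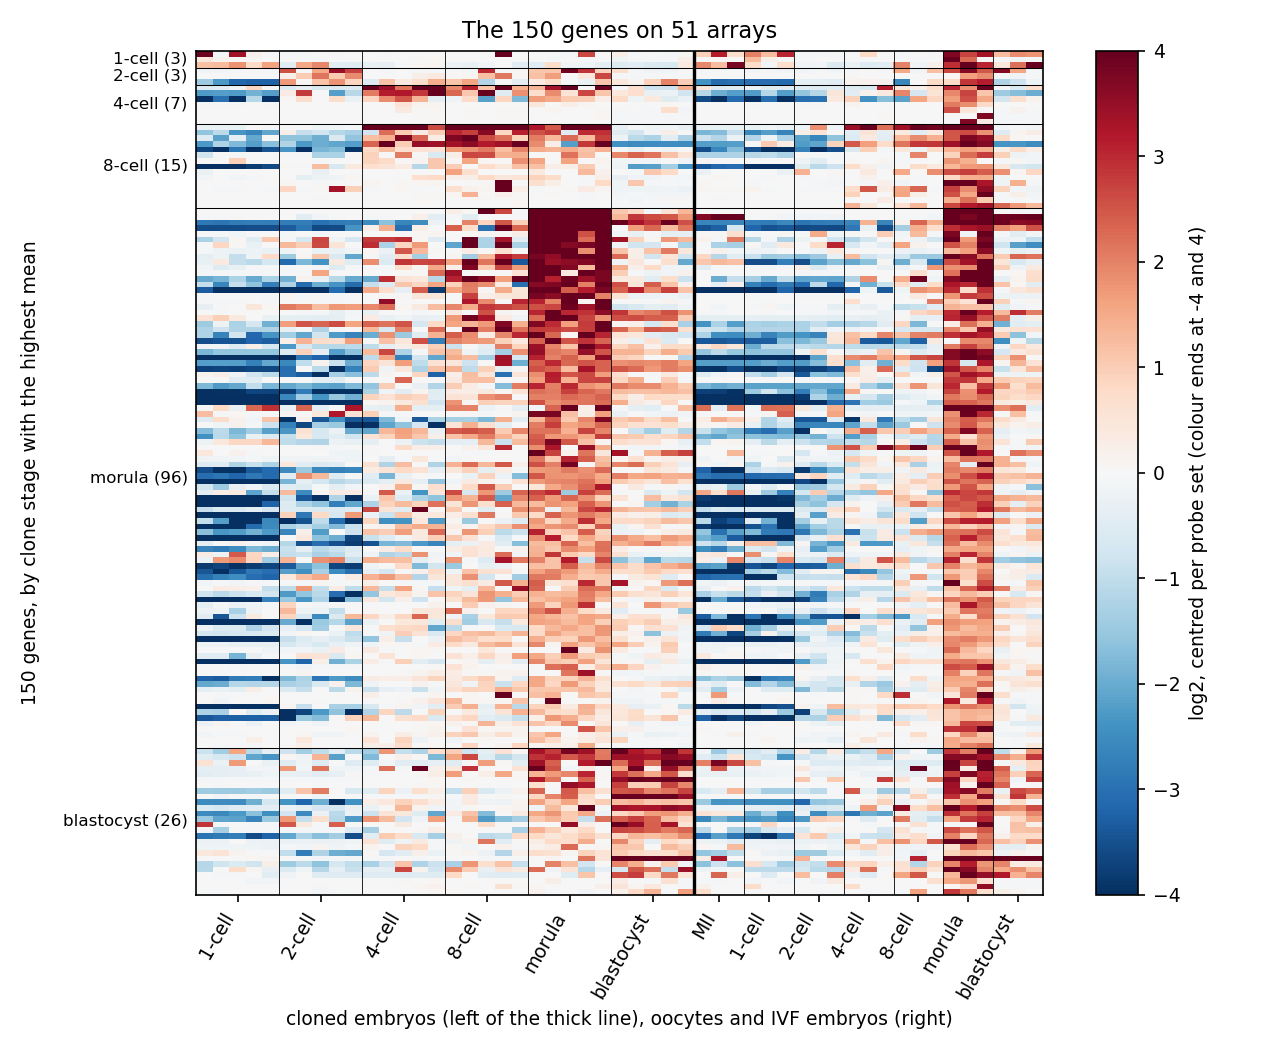
Centred log2 values of the 150 genes (rows, grouped by the clone stage with the highest mean, whose number of genes is given) on the 51 arrays (columns), clones left of the thick line and oocytes and IVF embryos right of it. In the morula block of 96 genes the morula columns are mostly red on both sides. Some of its genes are near 0 in cloned morulae, such as Pfkfb4 (mean 0.43). The blastocyst block of 26 genes is redder in cloned blastocysts than in cloned morulae.

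Between the 8-cell stage and the morula in clones, 55 of the 150 genes rose and 2 fell (limma on the 30 clone arrays, Benjamini-Hochberg adjusted p under 0.05 over all genes). Over all genes 9.81% rose and 7.61% fell. The median difference, cloned morula minus cloned 8-cell, was 1.02 over members and -0.03 over all genes, and 126 of the 150 differences were above 0 (39.6% of all genes). Without cloned 8-cell replicate 4, 52 members rose, against 8.71% of all genes, and the median difference was 1.02 over members and -0.02 over all genes. Among the 15 highest scores and the 8 largest rises, 13 rises passed. Of these 13, 12 kept their call without it, and Ube2q2 did not. With only the 8-cell and morula stages in the fit, 29 rose, against 5.16% of all genes. Of the same 13 rises, 7 then lost their call: Cfap43, Zmat3, Eda2r, Ube2q2, Igdcc4, Abca1 and Plk2 (adjusted p of 0.0694 to 0.230).

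Between the morula and the blastocyst in clones, 67 members fell and 8 rose. Over all genes 17.6% fell and 16.9% rose. The median difference, cloned blastocyst minus cloned morula, was -1.02 over members and -0.07 over all genes, and 121 members were below 0 (62.5% of all genes). With arrays centred on their medians, 65 members fell and 8 rose, against 8.36% and 17.1% of all genes. That centring moves the whole-table split, which was 3077 genes higher and 3203 lower as deposited and 3118 higher and 1521 lower after centring. The hybridisation controls moved with this comparison, at -1.25 to -1.07 in cloned blastocysts and -0.10 to 0.98 in cloned morulae. With their mean as a covariate, 27 members fell, against 4.18% of all genes. In a fit of the morula and blastocyst stages alone, 87 members fell, against 37.2% of all genes.

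Both changes passed the test for 29 members, which rose into the cloned morula and fell by the blastocyst, against 1.56% of all genes. All 29 had their highest clone mean at the morula, but passing both tests already places the cloned 8-cell and blastocyst means below it. The count was also 29 without cloned 8-cell replicate 4 (1.46% of all genes) and 12 with the hybridisation control covariate (0.808%). It was 21 with only the 2 stages of each comparison in the fit (1.09%).

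A second probe set exists for 91 of the 150 genes and often read differently. On it the IVF morula was the highest of the 7 oocyte and IVF groups for 43 of the 91 genes (8.19% of all genes with a second probe set), and the cloned morula was the highest clone stage for 38 (10.4%). In clones 17 of the 91 rose into the morula (7.92%) and 30 fell by the blastocyst (23.0%). The second probe sets of Smim38, Igdcc4 and Abcb1a scored 4.20, 1.61 and 1.11, so the IVF peak of these genes was on both. Those of Fgf13, Atp8b4, Kcns3, Pitx1 and Dnajc6 scored -0.03, -0.04, -0.06, -0.42 and -0.78, so their IVF peak was on the first of the 2 only.

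**Figure D4:**
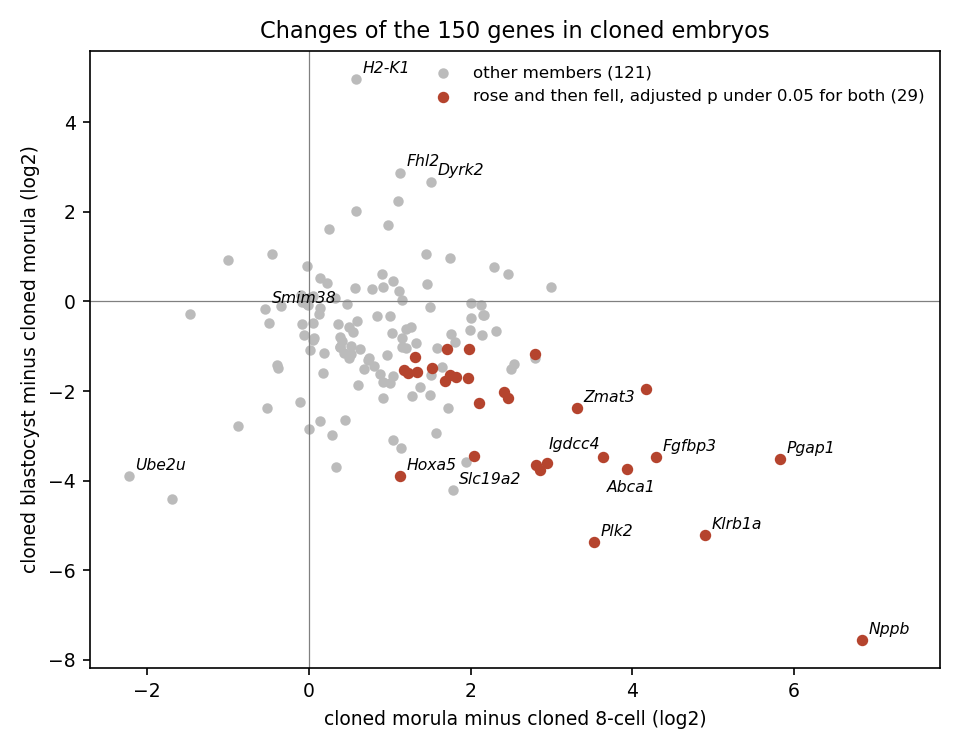
Change from the cloned 8-cell embryo to the cloned morula (horizontal axis, log2) against change from the cloned morula to the cloned blastocyst (vertical axis, log2), 1 point per gene, with the 29 genes that passed both tests in red. Nppb is farthest to the lower right, H2-K1 alone at the top, and Ube2u at the left.

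Among secreted factors and surface proteins, Nppb showed the sharpest clone peak. It stood at 0.24, 0.04, 4.35, 2.68 and 0.01 in the 5 cloned 8-cell embryos, at 8.17, 9.77, 8.14, 5.11 and 10.32 in the cloned morulae and at 1.09, 0.83, -0.05, 0.55 and 1.34 in the cloned blastocysts. IVF morulae had 5.95, 6.64 and 5.02. All 5 cloned morulae exceeded every cloned 8-cell embryo and blastocyst, while clones and IVF embryos overlapped at the morula. In clones Nppb rose by 6.84 ± 0.73 (SE, limma adjusted p = 2.47e-07) and then changed by -7.55 ± 0.73 (adjusted p = 9.69e-09).

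Klrb1a, a lectin-like receptor gene of the natural killer complex, took the values 6.92, 5.63, 4.02, 2.55 and 5.76 in cloned morulae, against -0.00 to 0.22 in cloned 8-cell embryos. It was 3.77, -0.13 and 4.15 in IVF morulae, so 1 of the 3 IVF morulae was below all 5 clones and the other 2 lay within the clone range. The rise was 4.90 ± 0.43 (adjusted p = 1.15e-08) and the later change -5.22 ± 0.43 (adjusted p = 6.38e-10). These SEs rest on 1 spread shared by all clone stages, while the SD of Klrb1a was 1.71 in cloned morulae and 0.09 in cloned 8-cell embryos. Fgfbp3, which encodes a secreted carrier of fibroblast growth factors, was at 4.94, 5.13, 5.64, 1.87 and 4.83 in cloned morulae and at 0.00 to 0.64 in cloned 8-cell embryos, with no overlap. Its rise was 4.29 ± 0.52 (adjusted p = 1.46e-06), and IVF morulae had 1.28, 1.63 and 3.61.

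Igdcc4 was more uneven before the morula, with 5.77, 4.64, 6.95, 2.22 and 5.30 in cloned morulae and 0.00, 5.04, -1.22, 3.32 and -0.44 in cloned 8-cell embryos. The ranges overlapped, and the rise of 3.64 ± 1.06 (adjusted p = 0.0178) lost its call without cloned 8-cell replicate 3 or 5 or cloned morula replicate 3 (adjusted p = 0.0578, 0.0575 and 0.0578). Vwce, which encodes a von Willebrand factor type protein, ranged from 0.11 to 7.09 in cloned morulae and from 0.01 to 3.25 in cloned 8-cell embryos, and only its later change passed (-3.59 ± 0.91, adjusted p = 0.00368). Fgf13 had no clone peak at all: cloned morulae lay between -0.03 and 0.05, against 1.54 to 5.28 in IVF morulae.

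Among genes tied to p53 and stress signalling, Zmat3 was high in morulae of both kinds. It stood at 3.65, 3.71, 4.75, 2.02 and 4.53 in cloned morulae, against 3.24, 3.03 and 4.92 in IVF morulae. Cloned 8-cell embryos had 0.91, 2.06, 1.87, 0.27 and -3.01, so only the lowest cloned morula fell within the 8-cell range. Zmat3 rose by 3.31 ± 0.76 (limma adjusted p = 0.00311) and then changed by -2.38 ± 0.76 (adjusted p = 0.0182). Cloned blastocysts kept a mean of 1.35 (range 0.19 to 2.54), and IVF blastocysts averaged 0.27. The call for the rise was lost with only the 2 stages in the fit (adjusted p = 0.0750). The later call was lost without cloned blastocyst replicate 5 (adjusted p = 0.0532) and with the hybridisation controls as a covariate (adjusted p = 0.235).

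Eda2r was at 4.80, 4.35, 3.71, 1.25 and 5.36 in cloned morulae and 0.21, 3.70, 1.04, 2.67 and 1.66 in cloned 8-cell embryos, with 1 cloned morula inside the earlier range. IVF morulae had 1.82, 1.89 and 5.71. Its rise of 2.04 ± 0.59 (adjusted p = 0.0173) lost its call without cloned 8-cell replicate 1 (adjusted p = 0.0591) or cloned morula replicate 1 or 5 (0.0521 and 0.0540), with quantile normalization (0.0985) and with only the 2 stages in the fit (0.195). Its later change was -3.46 ± 0.59 (adjusted p = 6.54e-05), and with the hybridisation controls as a covariate the adjusted p was 0.266.

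Plk2, a kinase that p53 induces, split the cloned 8-cell embryos into 2 at 5.04 and 5.84 and 3 at -2.09, -1.26 and -1.26. Cloned morulae were at 5.41, 5.72, 3.67, 3.79 and 5.33 and cloned blastocysts at -0.14, -0.81, -0.66, -0.08 and -1.28. The cloned morulae lay above all blastocysts, and the change of -5.38 ± 1.13 passed (adjusted p = 0.000661), but not with the hybridisation control covariate (0.155) or on the second probe set (0.0858). The rise of 3.53 ± 1.13 (adjusted p = 0.0306) lost its call in 6 of the 10 fits that left out 1 embryo of either stage, and the second probe set of Plk2 gave -0.01.

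Jun overlapped between stages, at 1.79 to 5.00 in cloned morulae and -0.13 to 3.87 in cloned 8-cell embryos, and its difference of 1.33 ± 0.60 did not pass (adjusted p = 0.138). Phlda3, another p53 target, singled out with Plk2 and Eda2r after the values were seen, was 2.59 to 4.15 in cloned morulae and -0.03 to 5.20 in cloned 8-cell embryos (0.19 ± 0.69, adjusted p = 0.930).

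Of the 20 written p53 targets and cell death genes, 17 were measured. In clones 4 rose into the morula and none fell, and from the morula to the blastocyst 2 rose and 5 fell. Over all genes 9.81% rose and 7.61% fell into the morula, and 16.9% rose and 17.6% fell after it. The first counts were also 4 and none without cloned 8-cell replicate 4. Pmaip1, which encodes the death-promoting protein Noxa, rose by 4.08 ± 0.74 (limma adjusted p = 0.000285), Ccng1 (cyclin G1) by 2.95 ± 0.81 (0.0118) and Gadd45a, a DNA damage response gene, by 1.32 ± 0.38 (0.0168), besides Zmat3. The 5 that fell were Cdkn1a (-3.23), which encodes the cell cycle inhibitor p21, Pmaip1 (-3.39), Zmat3, Mdm2 (-1.65), which encodes the ligase that degrades p53, and Gadd45a (-1.49). Perp and Pawr rose by 2.37 and 3.07. The median of the list was -0.01 for cloned morulae minus cloned 8-cell embryos and -0.57 for cloned blastocysts minus cloned morulae, against -0.03 and -0.07 over all genes.

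Of the 22 written Hippo pathway genes, 21 were measured. Those that rose into the cloned morula were Ccn2 (2.53 ± 0.82, adjusted p = 0.0338), Frmd6 (2.00 ± 0.56, 0.0138) and Wwtr1, which encodes the coactivator TAZ (1.37 ± 0.40, 0.0173). Yap1 (-1.41 ± 0.18, 4.18e-06), which encodes the other coactivator, and Tead3 (-0.93 ± 0.29, 0.0246) fell, and the call for Tead3 was lost without cloned 8-cell replicate 4 (adjusted p = 0.0918). Ccn2, the only one of these among the 150 members, was at 4.62, 4.31, 2.44, 3.13 and 3.77 in cloned morulae, against 2.97, 0.71 and 2.92 in IVF morulae. The clones lay above the 8-cell clones, which reached 2.01. From the morula to the blastocyst 5 of the 21 rose and none fell. Over all genes 9.81% rose and 7.61% fell into the morula, while 16.9% rose and 17.6% fell after it.

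Among transporters and lipid or metabolic genes, Pgap1, which encodes an enzyme that remodels the lipid anchor of surface proteins, separated the clone stages. It was at 5.76, 6.50, 6.02, 5.09 and 5.22 in cloned morulae, against 6.09, 3.77 and 6.18 in IVF morulae. Cloned 8-cell embryos were at -0.50 to 0.00 and cloned blastocysts at 1.31 to 2.83, so the cloned morulae stood clear of both. The rise was 5.83 ± 0.24 (limma adjusted p = 2.80e-15) and the later change -3.53 ± 0.24 (adjusted p = 1.14e-11). Its second probe set gave 1.51 and -1.86 for these, but an IVF score of -0.33, so the IVF morula was not the highest group there.

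Abca1, the cholesterol exporter, was at 5.09, 5.74, 4.85, 5.64 and 4.82 in cloned morulae, against 2.95, 3.26 and 3.46 in IVF morulae. Every cloned morula was above every IVF morula, and cloned 8-cell embryos spread from -2.95 to 4.03. The rise was 3.94 ± 0.84 (adjusted p = 0.00157) and the later change -3.75 ± 0.84 (adjusted p = 0.00132), for which the hybridisation control covariate gave an adjusted p of 0.159. The second probe set of Abca1 gave 0.90 and -1.12 for these, with an IVF score of -0.06.

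Abcb1a was already high at the cloned 8-cell stage, at 3.09, 4.57, 3.62, 1.63 and 4.08, and stayed at 4.52, 3.12, 3.89, 3.38 and 3.76 in cloned morulae. The ranges overlapped (0.34 ± 0.66, adjusted p = 0.819), and Abcb1a then changed by -3.70 ± 0.66 (adjusted p = 0.000105) to between -0.85 and 0.70 in cloned blastocysts. Slc19a2, the thiamine transporter gene, ranged from 3.41 to 4.83 in cloned morulae and from -3.36 to 5.93 in cloned 8-cell embryos. It changed by -4.22 ± 1.10 into the blastocyst (adjusted p = 0.00452, or 0.203 with the hybridisation control covariate).

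Acaa1b divided the cloned morulae, which took the values -0.11, 2.32, 4.15, 0.20 and 4.21, against 5.22, 4.69 and 7.16 in IVF morulae. All 5 clones were below all 3 IVF embryos, and neither the difference from cloned 8-cell embryos (1.49 ± 0.87, adjusted p = 0.267) nor that to blastocysts (-2.09 ± 0.87, adjusted p = 0.0639) passed. Atp8b4 was at -0.01 to 0.00 in 3 cloned morulae and at 1.10 and 2.52 in the others, against 2.90 to 4.32 in IVF morulae. Kcns3, which encodes a modulatory potassium channel subunit, was at 0.00 to 1.49 in cloned and 2.28 to 4.81 in IVF morulae.

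Prps2 had its highest clone mean at the 4-cell stage. It was at 1.36, 3.33, 5.09, -0.01 and 3.93 in cloned morulae, against 3.05, 1.82 and 5.45 in IVF morulae, and its value of 5.36 in cloned 8-cell replicate 4 was the highest of that stage. Only its later change passed (-2.67 ± 0.82, adjusted p = 0.0145), and not without cloned morula replicate 3 (adjusted p = 0.0531) or with the hybridisation control covariate (0.863).

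Among transcription and RNA regulators, Hoxa5, a homeobox gene better known from body patterning, was higher in clones. It was at 2.55, 2.67, 3.88, 3.36 and 4.69 in cloned morulae, against 1.36, 1.18 and 1.19 in IVF morulae, and cloned 8-cell embryos already had 1.49 to 2.83. The groups did not overlap between cloned and IVF morulae. The rise into the cloned morula was 1.13 ± 0.38 (limma adjusted p = 0.0396), and the change into the blastocyst was -3.90 ± 0.38 (adjusted p = 1.15e-08). The second probe set of Hoxa5 gave 0.09 for that last difference.

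Pitx1, a homeobox gene of limb and pituitary development, showed the opposite. It was between -0.02 and 0.01 in cloned morulae and at 2.67, 3.17 and 3.39 in IVF morulae, and no clone of the 8-cell, morula or blastocyst stage exceeded 0.06. Myef2 was at 3.50, 2.12, 1.94, 3.51 and 2.53 in cloned morulae, just below 3.67, 4.01 and 3.57 in IVF morulae, and rose by 2.49 ± 0.62 (adjusted p = 0.00551). Its second probe set had an IVF score of 0.21 and gave 0.42 for the rise, which did not pass (adjusted p = 0.666). Zic5, a zinc finger factor of neural development, was at -0.11 to 0.16 in cloned and 0.65 to 2.83 in IVF morulae.

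The remaining named genes act in protein handling, cilia and germ cells. Dnajc6 rose by 2.99 ± 0.55 (adjusted p = 0.000356) to 2.08 to 3.81 in cloned morulae, above the cloned 8-cell range of -0.82 to 0.98, and stayed at 2.85 to 4.19 in cloned blastocysts. IVF blastocysts averaged 0.29. Its second probe set gave -0.07 for the first difference. Cfap43 was at 4.68, 4.30, 0.36, 5.72 and 3.76 in cloned morulae, with 1 clone near the level of the 8-cell stage, and at 2.16, 4.00 and 4.78 in IVF morulae. It rose by 2.95 ± 0.72 (adjusted p = 0.00512) and then changed by -3.61 ± 0.72 (adjusted p = 0.000416), while its second probe set gave -0.31 for the rise and -0.24 for the later change (adjusted p = 0.593). The rise lost its call with only the 2 stages in the fit (adjusted p = 0.131).

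Ube2q2 was at 1.67 to 3.13 in cloned and 2.52 to 3.35 in IVF morulae and rose by 2.46 ± 0.70 (adjusted p = 0.0156). One cloned 8-cell embryo, replicate 4, was at -2.98, and without it the rise was 1.75 (adjusted p = 0.0595). Tex19.2, a gene of germ cells and placenta, was at 3.53 to 4.53 in cloned and 2.21 to 4.06 in IVF morulae, and changed by -3.76 ± 0.71 into the cloned blastocyst (adjusted p = 0.000207). Mmd2, a membrane receptor gene of the progestin and adipoQ family, ranged from 1.63 to 4.30 in cloned and 0.30 to 2.20 in IVF morulae and changed by -3.28 ± 0.57 into the cloned blastocyst (adjusted p = 8.97e-05). The second probe set of Mmd2 had an IVF score of -0.02 and gave -0.07 for that change.

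Ube2u, a ubiquitin-conjugating enzyme gene, and the predicted gene Gm12446 were the only 2 members that fell into the cloned morula, and they are named for that after the values were seen. Ube2u was at 1.90, 0.28, -2.21, 2.82 and 4.28 in cloned morulae and 3.35, 3.60, 3.16, 3.37 and 4.69 in cloned 8-cell embryos (-2.22 ± 0.77, adjusted p = 0.0452, or 0.0633 without cloned 8-cell replicate 4). IVF morulae had 3.39, 5.60 and 3.68. Cloned blastocysts were at -2.54 to -2.42, all below every cloned morula. Gm12446 fell by 1.69 on the log2 scale (SE 0.55, adjusted p = 0.0332).

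The 8 members that rose from the cloned morula to the cloned blastocyst, singled out after the values were seen, were H2-K1, Fhl2, Dyrk2, Tmeff1, Rhoq, Map3k1, 1700029P11Rik and Zic5. H2-K1, a class I histocompatibility gene whose close relatives may share its probes, was at 6.34, 5.55, 5.55, 4.94 and 5.25 in cloned blastocysts, against 0.00, 0.11, -0.00, 2.16 and 0.52 in cloned morulae (4.97 ± 0.27, adjusted p = 1.20e-13). IVF morulae were already at 5.96, 5.80 and 6.10 and IVF blastocysts averaged 4.97. No cloned morula came within the IVF morula range. A second probe set of H2-K1 scored -1.72, so the IVF morula was not the highest group there.

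Fhl2, a LIM domain cofactor gene, was at 3.50 to 4.53 in cloned blastocysts and 0.00 to 2.41 in cloned morulae (2.88 ± 0.27, adjusted p = 6.35e-09). Dyrk2, a kinase gene, was at 3.54 to 4.80 in cloned blastocysts and -0.03 to 3.18 in cloned morulae (2.67 ± 0.39, adjusted p = 7.98e-06). Map3k1, a stress kinase gene, was at 2.09 to 2.69 in cloned blastocysts and 0.01 to 1.39 in cloned morulae (1.70 ± 0.31, adjusted p = 0.000123). Fhl2, Dyrk2 and Map3k1 had also risen into the cloned morula, by 1.13, 1.52 and 0.97. The second probe set of Map3k1 scored -0.10 and gave -0.18 for the rise into the morula and -0.09 for the later change. That of Dyrk2 scored -0.42 and gave -0.06 and 0.73 for these. Tmeff1, a transmembrane protein gene, was at 3.27 to 3.57 in cloned blastocysts and -0.14 to 4.16 in cloned morulae, where 1 clone stood apart from the other 4. Its second probe set scored 2.52 but gave -0.82 for cloned blastocysts minus cloned morulae.

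**Figure D5:**
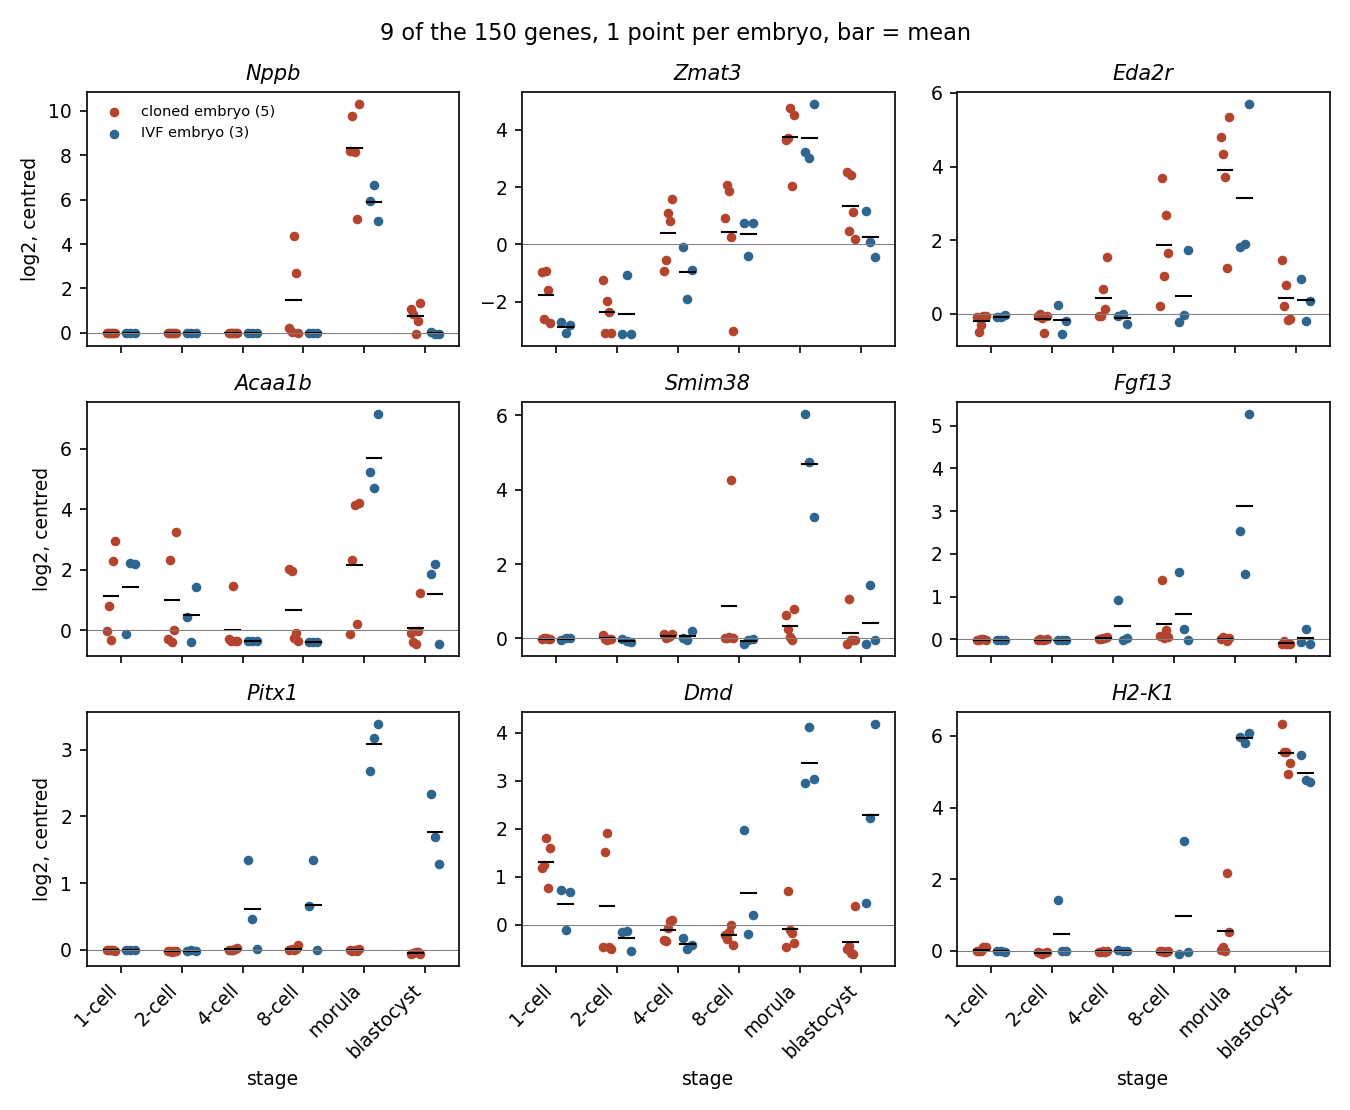
Centred log2 values (vertical axes) of 9 of the 150 genes by stage, with 1 point per embryo, clones in red left of IVF embryos in blue, and black bars for group means. Nppb, Zmat3 and Eda2r are high in morulae of both kinds, Acaa1b reaches 4.21 in clones and 7.16 in IVF morulae, Smim38, Fgf13, Pitx1 and Dmd stay at 0.78 or below in cloned morulae, and H2-K1 is high in IVF morulae and in blastocysts of both kinds.

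Cloned and IVF embryos of the same stage were set side by side as a description, because the IVF arrays chose the genes and the IVF morulae are high by that choice. Over the 150 genes the median of clone mean minus IVF mean was 0.00 at the 1-cell stage, 0.02 at the 2-cell, 0.09 at the 4-cell and 0.24 at the 8-cell stage, -0.63 at the morula and 0.07 at the blastocyst. Over all genes it was 0.01 at the morula. At that stage all 5 clones were below all 3 IVF embryos for 27 members (3.99% of all genes) and above them for 3 members (4.52% of all genes), and the groups overlapped for 120. The 3 were Abca1, Hoxa5 and Arrdc3, an arrestin domain gene that is named for this after its values were seen and that took 2.31 to 4.60 in cloned and -0.00 to 1.93 in IVF morulae. At the 8-cell stage all clones were above all IVF embryos for 41 members (37.1% of all genes) and below them for 3 (11.2%), or 44 (38.4%) and 5 (12.8%) without cloned 8-cell replicate 4. At the blastocyst stage all clones were above for 27 (6.34%) and below for 9 (9.94%). The IVF 8-cell embryos and blastocysts are low in these genes by the choice.

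The 8 lowest differences belonged to H2-K1 (-5.40), Smim38 (-4.36), Acaa1b (-3.54), Dmd (-3.45), Dcaf12l1 (-3.17), Fgf13 (-3.11), Pitx1 (-3.09) and Kcns3 (-3.07). Smim38 was at 0.64, 0.24, 0.02, -0.05 and 0.78 in cloned morulae, against 6.05, 4.74 and 3.26 in IVF morulae. Its clone values were near 0 at the 8-cell stage too, except 4.27 in replicate 4, the array without Y-linked signal. Dmd, which encodes dystrophin, was at -0.45, 0.70, -0.10, -0.16 and -0.39 in cloned morulae, against 2.96, 4.11 and 3.03 in IVF morulae. Dcaf12l1, a gene related to ubiquitin ligase adaptors, was at 2.25, -0.14, 0.53, -1.14 and -0.32 in cloned and 4.57, 3.64 and 2.00 in IVF morulae, so that 1 clone lay within the IVF range.

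The 8 highest differences belonged to Nppb (2.43), Klrb1a (2.38), Fgfbp3 (2.31), Hoxa5 (2.19), Abca1 (2.00), Igdcc4 (1.82), Mmd2 (1.78) and Vwce (1.72). For 6 of these 8 the cloned and IVF values overlapped, Hoxa5 and Abca1 being the exceptions. All 8 had their highest clone mean at the morula.

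Of the 150 genes 5 (3.33%) are X-linked, as are 3.39% of all genes, and they are Prps2, Eda2r, Fgf13, Dcaf12l1 and Dmd. Fgf13, Dcaf12l1 and Dmd were among the 8 lowest differences, while Eda2r had a clone mean 0.75 above the IVF mean. Of the 617 X-linked genes in the whole table, 79 (12.8%) had all 5 cloned morulae below all 3 IVF morulae, against 3.99% of all genes, while the median of clone mean minus IVF mean over the X-linked genes was 0.01, as over all genes. Xist, the RNA that silences the X chromosome, was at 3.50 to 4.65 in cloned morulae and at -0.45, 1.89 and -2.58 in IVF morulae, and its part in these values was not tested. The Y-linked gene Eif2s3y was at 0.81 to 2.34 in cloned morulae and at 1.07, -5.49 and 1.77 in IVF morulae. IVF morula replicate 2 was thus near the oocyte level, while the clone donors were male. The part of embryo sex in these values was not tested.

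A comparison free of the score used 1 IVF morula at a time, although the probe set of each gene was still the one picked on all 51 arrays: the 150 genes were chosen again from the other 2, and the array left out was then set against the 5 cloned morulae. Between 112 and 120 of the genes stayed the same. The IVF morula left out was above the highest other oocyte or IVF mean for 117, 104 and 129 of its 150 genes with replicates 1, 2 and 3 left out, against 7.3%, 7.84% and 8.1% of all genes. Its median gap over that mean was 1.01, 0.86 and 1.19, where the choosing arrays had 1.49, 1.51 and 1.41.

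Set against those arrays, the clones differed less from IVF morulae at the median than the -0.63 above. The median of the clone mean minus the IVF morula left out was -0.04, 0.06 and -0.42, against 0.02, 0.01 and 0.02 over all genes. The clone mean was below that array for 80, 66 and 97 of the 150 genes, against 33.2%, 35.1% and 34.0% of all genes. The 5 clones were all below it for 34, 40 and 48 of the 150 genes (13.3%, 15.5% and 13.5% of all genes) and all above it for 21, 40 and 13 (17.3%, 14.2% and 14.9%). IVF morula replicate 3, which has the highest median over the 150 genes, gave the lowest of the 3 values.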

How the data were processed

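Single oocytes and embryos were hybridised to Affymetrix arrays after a 2-cycle amplification, per the labels' protocols. The authors deposited 1 table of log2 values for 45101 probe sets on 51 arrays, made with RMA per the submitters' processing notes, whose version is not given in the sources used here. The values are centred per probe set: 94.3% of probe sets are at 0 on exactly 1 array, and the widest span within a probe set is 13.8, so the log base is read from the values and only differences are interpretable. The raw scans were not used here. Of the probe sets, 64 are controls, 34958 have 1 gene symbol, 932 several and 9147 none. Symbols were updated through Entrez IDs to RefSeq (GRCm38.p6), and 148 of the 150 members have a position there. The labels give each array's group. The number of arrays limits the precision.

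Group means of the 30 clone arrays were fitted with limma 3.58.1 (lmFit, eBayes, R 4.3.3) over 18194 genes, with Benjamini-Hochberg adjustment and a threshold of 0.05, and the script was tested on simulated data. The other values are means, medians and counts (Python 3.11.15, pandas 2.3.3), with no test on IVF arrays. Same-numbered clones of neighbouring stages did not deviate together (correlations of -0.04 to 0.14 and -0.05 to 0.07), so the numbers were not taken as pairs.

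Members, gene lists and tests were chosen with earlier results of these data known. Genes named are the 15 highest scores, the 5 just inside and 5 just outside the limit, the 8 largest rises into the cloned morula and falls after it among those passing the test, the 8 highest and 8 lowest differences between cloned and IVF morulae, and members of a written list. Symbols made of a clone or locus number alone were passed over where genes were picked by size. Alternatives covered the scaling (array medians, quantiles), the second probe set, a filter on the 30% of genes with the lowest SD, the stages in the fit, the hybridisation controls and the replicate number as covariates, lists of 100 and 300 genes, and each array left out.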

Additional observations from a re-analysis of the deposited data

Results flagged for a closer look

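Among the 5 cloned morulae, 3 of the 42 groups of values examined held an embryo far from the other 4, where chance gives about 1 in 20. Serinc5, which encodes a membrane protein of the serine incorporator family, was at 2.28 in cloned morula replicate 3 and at 0.05 to 0.29 in the other 4. H2-K1 was at 2.16 in cloned morula replicate 4, with the others between -0.00 and 0.52. Fgfbp3 was at 1.87 in cloned morula replicate 4, with the others between 4.83 and 5.64.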

How the results depend on the processing

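The count of members that rose into the cloned morula (55) was 17 of 91 with the second probe set (7.92% of all such genes), 29 with only the 2 stages in the fit (5.16% of all genes) and 102 of 300 with a list of 300 genes (9.81% of all genes), and 42 to 55 with 1 array left out. The count that fell after it (67) was 30 of 91 with the second probe set (23.0% of all such genes), 27 with the hybridisation controls as a covariate (4.18% of all genes) and 119 of 300 with the longer list (17.6% of all genes), and 64 to 68 with 1 array left out. With only the 2 stages in the fit, 87 members fell, but so did 37.2% of all genes. The count with both changes (29) was 11 of 91 with the second probe set (1.51% of all such genes), 12 with the hybridisation controls (0.808% of all genes), 21 with only the 2 stages in each fit (1.09% of all genes), and 23 to 31 with 1 array left out. Members highest at the cloned morula (96) were 38 of 91 with the second probe set (10.4% of all such genes) and 90 to 104 with 1 array left out. The replicate number as a block gave 55, 67 and 28 for the first 3 counts and changed none of them by over 1.5 times. The median of clone minus IVF morula left out averaged -0.13 over the 3 arrays and ranged from -0.42 to 0.059. Of 491 values under these settings for 28 differences of named genes, 451 kept direction and call, 36 lost the call and 4 turned sign. All 4 did so with the second probe set: Cfap43 (-0.31), Dnajc6 (-0.067) and Plk2 (-0.0064) for the rise and Hoxa5 (0.087) for the fall. Only 15 of the 28 differences could be read on a second probe set, where 7 kept direction and call and 4 more lost the call. The hybridisation controls as a covariate took the call from 8 of the 28, and the fit of only the 2 stages from 7. The 28 are changes that passed among the highest scores and the largest rises and falls. Other changes of named genes were not in that count. On the second probe set some of them also turned sign, among them the rises of Hoxa5, Map3k1, Dyrk2 and Tap1. The later changes of Map3k1 and Tmeff1 did so too, while those of H2-K1 and Mmd2 kept their sign. The causes were not tested, apart from fewer genes or arrays where a setting itself leaves them out. Each probe set is read by 1 array per embryo and has no absolute level, so a gene near 0 cannot be called absent.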

Other observations

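Tap1, the peptide transporter of the class I pathway that also serves H2-K1, was itself among the 150 genes and was singled out here after its values were seen. It stood at 0.65, -0.01, 3.50, 3.23 and 0.03 in cloned morulae, against 3.40, 0.15 and 4.60 in IVF morulae, so embryos of both kinds were split between high and low values. In clones it rose into the morula by 1.47 ± 0.49 (SE, limma adjusted p = 0.0402, or 0.0648 without cloned 8-cell replicate 4) and had its highest mean at the blastocyst. Its second probe set scored -0.12. Rarb, a retinoic acid receptor gene singled out in the same way, was near 0 in 4 cloned morulae and at 2.66 in replicate 4, against 3.69, 2.71 and 3.34 in IVF morulae.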
